A study of Mus musculus with 12 samples.

Results

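The anaphase-promoting complex is a ubiquitin ligase of many subunits that marks proteins for destruction by the proteasome. It is directed to its substrates by a pair of related activators: Cdc20, which acts from metaphase and brings about the loss of securin and cyclin B, and Fzr1 (also called Cdh1), which acts from late mitosis through G1 and in neurons that no longer divide. SnoN, the protein made by Skil, is a substrate of the Fzr1-bound complex in neurons, where its removal restrains axon growth, so the ligase and the deleted gene stand in one known pathway. Genes were chosen by name, with earlier results of these data known. The 10 genes described here are the subunits Anapc1, Anapc2, Anapc4, Anapc5, Anapc10, Cdc16, Cdc23 and Cdc27 and the activators Fzr1 and Cdc20. They are 10 of 53379 gene rows counted, and each was among the 13442 genes that passed the filter on low counts.

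RNA came from the external granule layer, where granule neuron precursors divide, laser-captured from central lobules of the cerebellum of C57BL/6 mice at postnatal day 6. The knockout group carried a conditional SnoN knockout, and the wild-type group were control littermates. The Cre driver and the deleted exons were not stated in the labels read here. Libraries 1, 2, 3, 5, 6 and 7 were wild type and libraries 2, 3, 4, 5, 6 and 8 were knockout, written here as WT1 or KO2. WT2 and KO4 were marked by the submitters as outliers, so 5 libraries were compared with 5. KO2 carries a wild-type genotype tag against its title and was kept as knockout by its title. Nothing in the labels ties a library to its own animal, and the p-values therefore cover only library-to-library spread, which may be technical.

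Gene counts summed to between 7520076 and 15083086 per library, and no member had fewer than 311 reads in any library. Levels are given as CPM, counts per 1e+06 scaled by TMM factors. The precursor factor Atoh1 was at 75.1 to 137 CPM and the cycling-cell antigen Mki67 at 127 to 195 CPM over the 12 libraries. Markers of Purkinje cells, which lie beneath the layer, were present too: over the 5 libraries of each group compared, the 6 genes summed to between 212 and 317 CPM in wild type and between 271 and 475 CPM in knockout (two-sided exact permutation p = 0.0476, 1 of 9 marker lists tested and not adjusted for that number). In the marked libraries the sum was 579 CPM in WT2, the highest of the 12, and 251 CPM in KO4. None of those 6 was at 0 in any library (Ppp1r17, the lowest, was at 0.0973 to 1.44 CPM). The sum of 8 markers of Bergmann glia and astrocytes was 561 to 960 CPM in the 5 wild-type and 784 to 1220 CPM in the 5 knockout libraries (p = 0.0873, same exact permutation test), and WT2 was at 1972 CPM against 831 in KO4. The sum of 7 markers of granule neuron precursors was 1781 to 2177 and 1914 to 2629 CPM (exact p = 0.0556), and WT2 was at 2647 CPM against 2232 in KO4. The other 6 lists had exact p from 0.135 to 1. Among them, the 6 markers of differentiating granule neurons summed to 3305 to 5525 CPM in wild type and 3668 to 6944 CPM in knockout. WT2 was at 6171 CPM and KO4 at 4576. These sums were above those of the precursor markers, and Neurod1 alone was at 1498 to 4693 CPM over the 12 libraries. Only 2 of the 4 interneuron markers listed were tested. The sums of the 4 were low and overlapped, at 9.78 to 16.9 CPM in wild type and 8.02 to 32.4 CPM in knockout. At an unadjusted p under 0.05, 11.8% of all genes tested were higher and 9.97% lower. Of the markers tested, 3 of 5 Purkinje, 1 of 8 Bergmann glia and astrocyte and 2 of 7 precursor genes were higher. So were 2 of 6 differentiating granule neuron, 2 of 2 interneuron and 1 of 4 meningeal markers. Lower at that level were 1 precursor, 2 differentiating granule neuron and 2 of 5 oligodendrocyte markers, and 0 microglial, endothelial or blood markers were past it in edgeR's test. The part of these cells in the results below was not tested. In such bulk samples, fewer cells of a type and less RNA per cell cannot be told apart.

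Skil, the targeted gene, was at 38.5 to 57.8 CPM in wild type and 20.9 to 36.7 CPM in knockout. The 5 knockout libraries thus lay below the 5 wild-type libraries, and groups separated fully for 2.35% of genes tested. KO2 was at 36.1 CPM. Its log2 fold change, that of Skil, was -0.70 (SE 0.15, adjusted p = 0.124). With KO2 counted as wild type it was -0.70 as well (unadjusted p = 0.00103, adjusted p = 0.792). WT2, at 76.5 CPM, was the highest of the 12 libraries and KO4, at 14.0, the lowest.

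The sequence before the start site of Cdc20 holds letters of an element found in genes of the late cell cycle. This element, called CHR (searched as TTTGAA or TTTAAA on both strands; no overlap with CCAAT), is bound by complexes that hold mitotic genes silent in quiescent cells. RefSeq windows on GRCm38.p6, from 250 bases before to 50 after the start, were given for 9 of the 10 members. Of these 9, Cdc20 alone had a match, 18 bases before its start. Of all 32851 such windows, 27.6% held a match. The CCAAT box (CCAAT, both strands), a binding site of NF-Y that often lies near a CHR, was found in the windows of Cdc20, Fzr1, Cdc27, Anapc5 and Anapc10, against 37.4% of all windows. The stretches below lie upstream of every annotated exon, are written 5′ to 3′ on the gene's strand and show the activators side by side, with CHR and CCAAT matches in capitals (1 of each in Cdc20, none in the Fzr1 stretch). The Cdc20 stretch is chr4:118437353-118437593 and the Fzr1 stretch is chr10:81378517-81378620, both on the minus strand. The CCAAT match of Fzr1 and the second of Cdc20 lie outside the printed stretches.
Cdc20: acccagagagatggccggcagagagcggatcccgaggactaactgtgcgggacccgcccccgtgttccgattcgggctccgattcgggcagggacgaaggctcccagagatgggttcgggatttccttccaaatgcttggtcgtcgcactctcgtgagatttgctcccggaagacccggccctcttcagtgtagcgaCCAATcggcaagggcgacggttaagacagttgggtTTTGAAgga
Fzr1: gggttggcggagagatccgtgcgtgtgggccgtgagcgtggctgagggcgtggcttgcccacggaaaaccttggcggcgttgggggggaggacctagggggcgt
A match is a description of these letters, and no binding was measured. The Fzr1 window was 73.3% G and C with 40 CpG pairs, and that of Cdc20 58.7% with 25. The median over all windows was 52.7% and 7 CpG pairs.

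In wild type, the members differed widely in level per length, measured as CPM per kb of the longest coding transcript. Anapc5, a subunit of the platform that holds the complex together, was highest at 152 ± 23.1 CPM per kb (SD, n = 5 here and below). Cdc20 followed at 78.2 ± 12.6. Cdc16, whose TPR repeats form part of the arc that binds the activators, was at 61.8 ± 8.17. The ranges of Cdc20 and Cdc16 overlapped, and the lowest library of Anapc5 lay above the highest of Cdc20.

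Below these, Cdc23, another TPR subunit, was at 38.4 ± 2.80 CPM per kb and Fzr1 at 28.3 ± 4.32. Anapc2, the cullin-like catalytic subunit, was at 25.3 ± 4.26. Anapc4, a platform subunit, was at 25.3 ± 2.65, and Anapc1, the largest scaffold subunit, was at 23.2 ± 1.64. Within these 5, neighbours in the order overlapped. The highest library of Cdc23 lay below the lowest of Cdc16, and the lowest of Anapc1 lay above the highest of Cdc27. Cdc27, the TPR subunit that receives the C-terminal tails of the activators, was at 17.8 ± 1.82, and Anapc10, which helps to bind substrates, was lowest at 16.3 ± 3.20, its range overlapping that of Cdc27. Per kb of all annotated exons Cdc20 came first at 75.0 ± 12.1 CPM per kb and Anapc5 next at 68.6 ± 10.4. On that scale Anapc2 had rank 4, Cdc23 rank 6 and Anapc1 rank 10, at 12.4 ± 0.878, and Anapc10 was at 15.5 ± 3.03. The order thus depended on the length used, apart from Cdc16, Fzr1 and Cdc27, which kept their places.

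**Figure D1:**
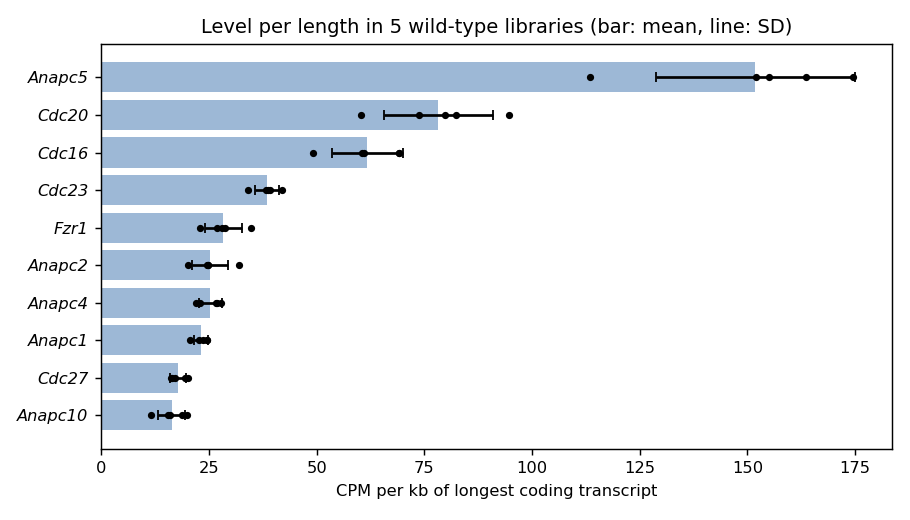
Level of each member in the 5 wild-type libraries, in CPM per kb of the longest coding transcript. Bars are means, lines SDs and points single libraries; Anapc5 stands at 152 and Anapc10 at 16.3 CPM per kb.

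Between genotypes, both activators and the subunits Anapc2 and Anapc5 had lower means in knockout, Anapc10 and Cdc27 had higher means, and Anapc1, Anapc4, Cdc16 and Cdc23 lay closer together. After Benjamini-Hochberg adjustment over 13442 genes, edgeR's quasi-likelihood test passed 0 of the 10 at 0.05, and 0.0223% of all genes. Without adjustment, 4 members were lower and 2 higher at 0.05, where 9.97% of all genes tested were lower and 11.8% higher. DESeq2 called 2 members, Fzr1 and Anapc2, both lower (adjusted p = 0.0107 and 0.0309), where 1.59% of genes were called lower. With KO2 counted as wild type, as its genotype tag has it, Fzr1 alone was past 0.05 without adjustment (log2 fold change -0.46, unadjusted p = 0.0189), where 3.21% of all genes were lower and 5.52% past 0.05 either way. In that fit Cdc20 was at -0.27, Anapc2 at -0.34, Anapc5 at -0.24, Cdc27 at 0.22 and Anapc10 at 0.49. The members' median log2 fold change was -0.14, beside 0.00 over all genes tested. For none of the 10 did the groups separate fully, against 2.35% of genes tested.

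Fzr1 had the smallest p of the members. It was at 85.8, 69.8, 82.0, 106 and 88.1 CPM in wild-type libraries 1, 3, 5, 6 and 7, and at 50.8, 54.8, 74.8, 56.2 and 47.0 CPM in knockout libraries 2, 3, 5, 6 and 8. Only KO5 reached into the wild-type range, above WT3. The wild-type mean was 86.4 ± 13.2 CPM and that of knockout 56.7 ± 10.7 (SD, n = 5 in both). On the log2 scale the difference was -0.61 (SE 0.13, adjusted p = 0.124; unadjusted p = 2.6e-04, rank 21 of the genes tested; two-sided exact permutation p = 0.0159, where the smallest possible is 0.00794). The marked libraries stood in the opposite order, at 36.8 CPM in WT2 and 86.5 in KO4, and a fit with them gave -0.34 (unadjusted p = 0.125).

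Cdc20 was at 132, 108, 143, 170 and 148 CPM in wild-type libraries 1, 3, 5, 6 and 7. It was at 84.5, 88.6, 152, 114 and 79.9 CPM in knockout libraries 2, 3, 5, 6 and 8. KO2, KO3 and KO8 lay below every wild-type library of the comparison, whereas KO5 was above 4 of the 5. The log2 fold change was -0.43 (SE 0.16, adjusted p = 0.160; unadjusted p = 0.0163; exact permutation p = 0.0714). WT2, at 68.1 CPM, was the lowest of all 12 libraries and KO4, at 208, the highest, and a fit with these gave -0.08 (unadjusted p = 0.742).

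The ratio of the activators spanned less than either alone. From the lowest to the highest of the 12 libraries, Fzr1 spanned 2.90-fold and Cdc20 3.05-fold. In CPM, Cdc20 over Fzr1 was 1.54, 1.55, 1.75, 1.60 and 1.68 in wild-type libraries 1, 3, 5, 6 and 7. It was 1.66, 1.62, 2.03, 2.03 and 1.70 in knockout libraries 2, 3, 5, 6 and 8. The groups overlapped (1.62 ± 0.0890 and 1.81 ± 0.206, SD, n = 5 each), and no test was made on this ratio. The marked libraries were at 1.85 in WT2 and 2.40 in KO4, the highest value.

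Anapc2, which with the RING subunit Anapc11 forms the catalytic core, was at 74.5, 60.8, 74.0, 96.3 and 73.8 CPM in wild-type libraries 1, 3, 5, 6 and 7. It was at 43.4, 48.5, 65.2, 61.5 and 47.7 CPM in knockout libraries 2, 3, 5, 6 and 8. KO5 and KO6 lay above WT3, the lowest wild-type library, and the other three lay below it. The log2 fold change was -0.51 (SE 0.14, adjusted p = 0.131; unadjusted p = 0.00149; exact permutation p = 0.0238). WT2 was the lowest of the 12 libraries, at 39.0 CPM, and KO4 lay above 4 of the 5 wild-type libraries, at 79.1 CPM. A fit with them gave -0.28 (unadjusted p = 0.166).

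Anapc5 ranged from 313 to 482 CPM in wild type and from 266 to 436 CPM in knockout, with medians of 428 and 282 CPM. KO5 was again the highest knockout library. The log2 fold change was -0.39 (SE 0.14, adjusted p = 0.154; unadjusted p = 0.0127). A fit with WT2, the lowest of the 12 at 216 CPM, and KO4, at 365 CPM, gave -0.24 (unadjusted p = 0.211).

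Anapc10, which binds substrates jointly with the activator, went the other way. It was at 71.2, 86.4, 73.1, 53.5 and 90.8 CPM in wild-type libraries 1, 3, 5, 6 and 7, and at 120, 163, 57.6, 102 and 140 CPM in knockout libraries 2, 3, 5, 6 and 8. Of the knockout libraries, 4 lay above every wild-type library and KO5 lay below 4 of them. The log2 fold change was 0.63 (SE 0.21, adjusted p = 0.145; unadjusted p = 0.00924). Across the 12 libraries its level spanned 4.24-fold, the widest of the 10 members, from WT6 to 227 CPM in WT2. A fit with WT2 and KO4 (61.5 CPM) gave 0.10 (unadjusted p = 0.767).

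Cdc27 was at 92.4, 109, 88.8, 87.2 and 105 CPM in wild-type libraries 1, 3, 5, 6 and 7, and at 147, 129, 88.2, 124 and 146 CPM in knockout libraries 2, 3, 5, 6 and 8. KO5 again fell among the wild-type libraries and the other four lay above them. Its log2 fold change was 0.39 (SE 0.13, adjusted p = 0.139; unadjusted p = 0.00656), and 0.20 (unadjusted p = 0.245) with the marked libraries, at 152 CPM in WT2 and 92.8 in KO4.

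**Figure D2:**
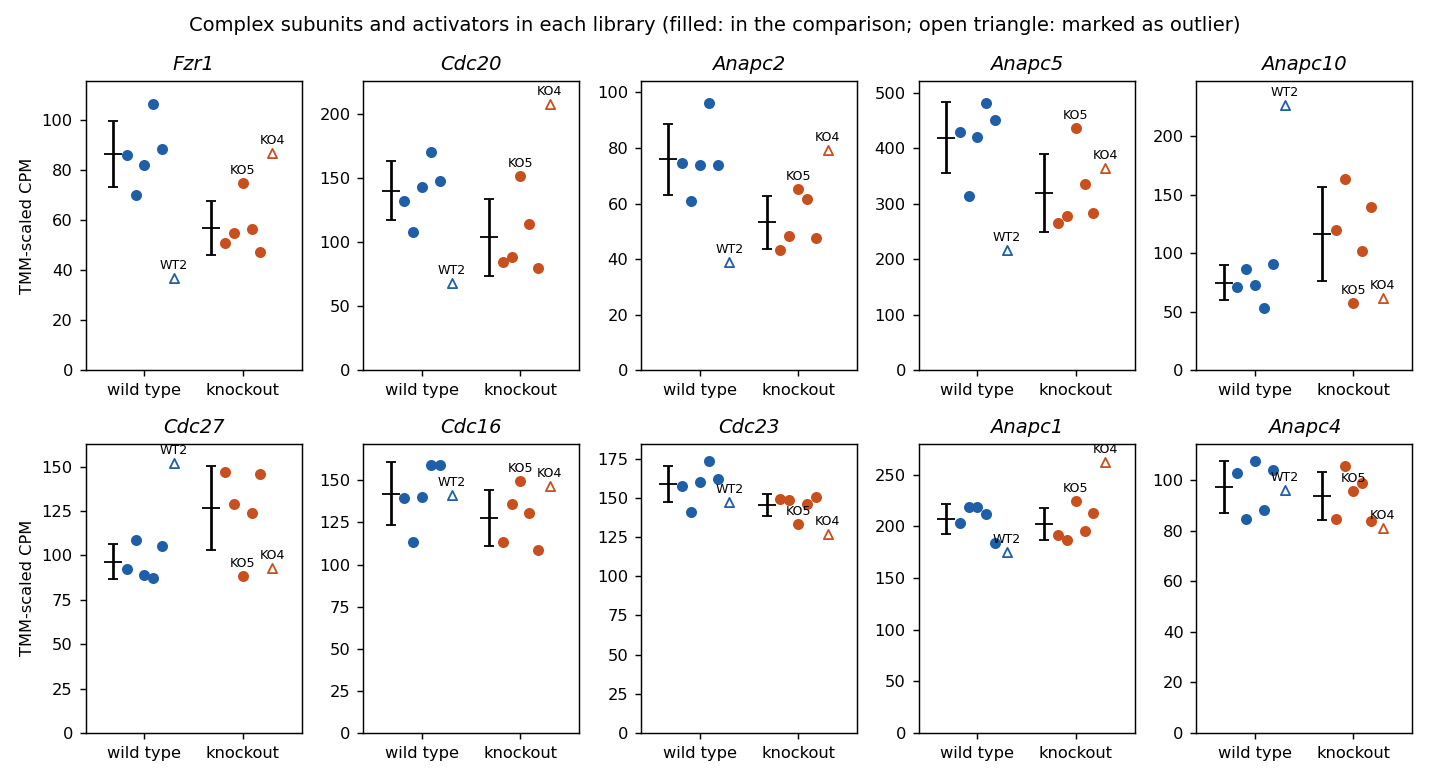
TMM-scaled CPM of the 10 members in each library, in the order of the library numbers with the marked library last; black bars are the mean and SD of the 5 libraries compared. Open triangles are WT2 and KO4, and KO5 is named: it sits with the wild-type libraries for Fzr1, Cdc20, Anapc2, Anapc5, Anapc10 and Cdc27.

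The remaining 4 subunits were steadier. Cdc23 was at 141 to 173 CPM in wild type and 134 to 150 CPM in knockout (log2 fold change -0.12, SE 0.09, adjusted p = 0.429), and Cdc16 at 113 to 159 and 108 to 149 CPM (-0.16, SE 0.12, adjusted p = 0.439). Anapc1 had means of 207 ± 14.7 and 202 ± 15.8 CPM (-0.04, SE 0.09, adjusted p = 0.851) and Anapc4 of 97.3 ± 10.2 and 93.7 ± 9.38 CPM (-0.06, SE 0.11, adjusted p = 0.780; SD, n = 5 each). The signs of Anapc1, Anapc4 and Cdc16 turned under some alternatives, and that of Cdc23 under none of the 23 run. From the lowest to the highest of the 12 libraries, Anapc4 spanned 1.32-fold, Cdc23 1.37-fold and Cdc16 1.47-fold.

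Whether members passed in edgeR's test rested on KO5 and on the filter. Without KO5, 6 of the 10 passed, Fzr1, Cdc20, Anapc2 and Anapc5 as lower (log2 fold changes -0.73, -0.61, -0.59 and -0.53) and Anapc10 and Cdc27 as higher (0.80 and 0.50), with adjusted p from 9.1e-04 to 0.00251. In that fit 22.9% of all genes passed, 10.6% as lower and 12.3% as higher. With no filter on low counts the same 6 passed, where 3.49% of 27688 genes did. That share also counts genes of low counts, so it is not on the same footing as the others. Leaving out any other library gave 0 members, and with WT2 and KO4 included 0 members were past an unadjusted p of 0.05 as well, where 3.47% of genes were.

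The direction of the 6 members past an unadjusted p of 0.05 ran with the G and C content of their transcripts. The 4 members above 50% GC were the 4 lower at an unadjusted p under 0.05: Fzr1 (59.9% GC), Cdc20 (54.8%), Anapc2 (54.7%) and Anapc5 (51.9%). The 2 below 42% GC, Anapc10 (39.3%) and Cdc27 (40.8%), were the 2 that were higher. All genes tested showed such a trend: the median log2 fold change was 0.32 for genes of 38 to 40% GC, 0.02 for those of 48 to 50%, and -0.19 for those of 58 to 60%. Against the median of the genes within 2 points of its own GC content, each of 8 members was lower and Anapc10 and Cdc27 were higher, by between -0.42 for Fzr1 and 0.34 for Anapc10. Anapc4, Anapc1, Cdc23 and Cdc16, from 43.0 to 48.9% GC, were negative, where genes of like GC had medians of 0.20, 0.13, 0.05 and 0.00.

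**Figure D3:**
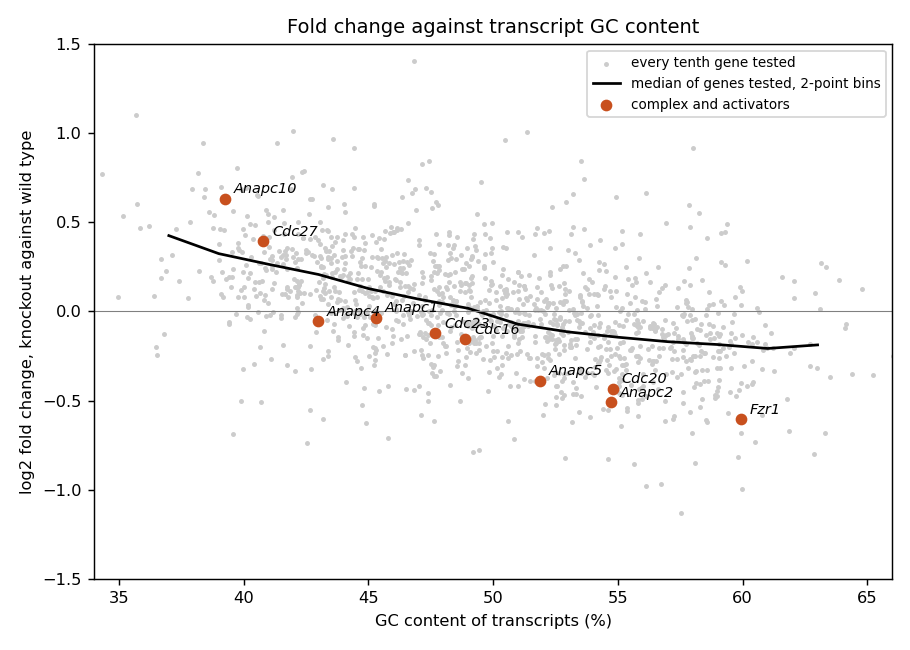
Log2 fold change of knockout against wild type (5 against 5 libraries) against the GC content of a gene's transcripts, for the members (orange) and 1 in 10 of the genes tested (grey, those outside the axis not drawn). The black line, the median of all genes tested, goes from 0.42 at 36 to 38% GC to -0.19 at 62 to 64%; Fzr1 lies at -0.61 and Anapc10 at 0.63.

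Libraries of 1 genotype also differed in this respect. A GC contrast was taken for each library as the mean deviation (log2) of the 20% of genes with the highest GC content from their 12-library mean, minus that of the lowest 20%. It was 0.06 to 0.47 in the 5 wild-type libraries and -0.38 to 0.33 in the 5 knockout libraries (two-sided exact permutation p = 0.0635). KO2, KO3 and KO8 were below -0.30, KO6 was at 0.01 and KO5 at 0.33, within the wild-type range. WT2, at -0.80, was the lowest of all and KO4 was at 0.32. KO2, KO3 and KO8 had more Anapc10 and Cdc27 and less Fzr1 and Cdc20 than KO4, KO5 and KO6, and among wild-type libraries WT2 stood at the same ends for all 4. What sets the contrast was not tested.

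**Figure D4:**
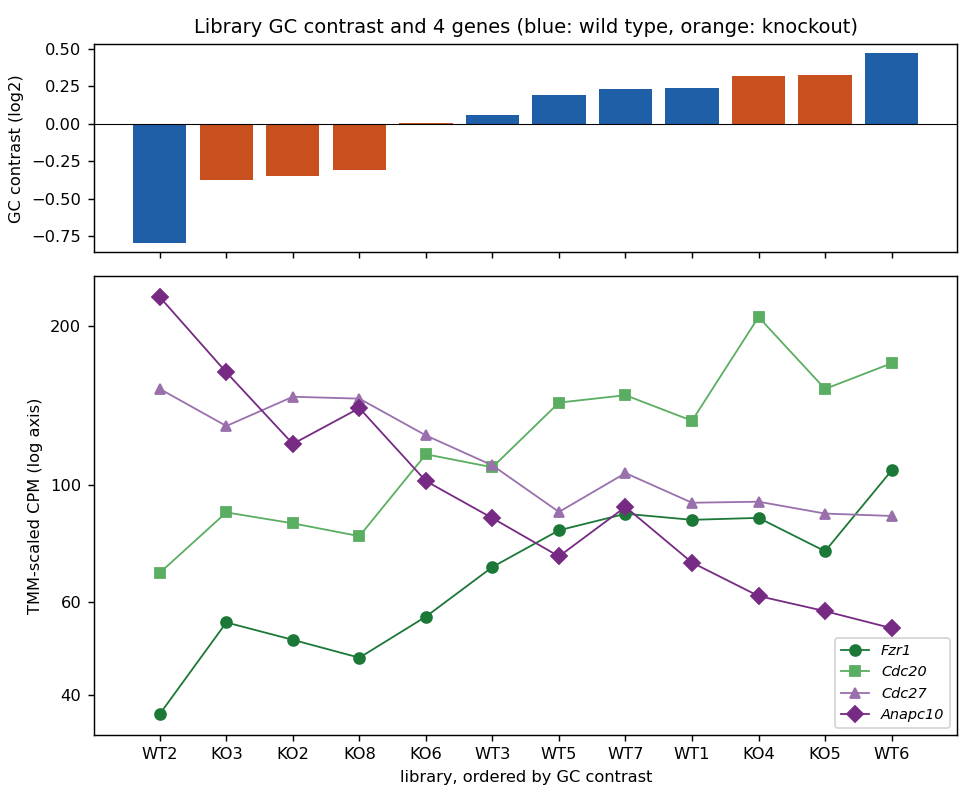
The 12 libraries ordered by GC contrast (upper panel, log2; blue wild type, orange knockout), with the level of 4 members in each below, in TMM-scaled CPM on a log axis. From WT2 (-0.80) to WT6 (0.47), Anapc10 goes from 227 to 53.5 CPM and Fzr1 from 36.8 to 106 CPM.

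With each library's GC trend taken out of the fit, the log2 fold change of Cdc27 went from 0.39 to 0.12 (unadjusted p = 0.214) and that of Anapc10 from 0.63 to 0.29 (0.0496). The lower members kept more of theirs: Fzr1 was at -0.43 (unadjusted p = 4.7e-04, adjusted p = 0.118), Anapc2 at -0.38 (0.00227 and 0.160), Anapc5 at -0.32 (0.00892 and 0.207) and Cdc20 at -0.31 (0.0187 and 0.245). Anapc4 moved from -0.06 to -0.24 (unadjusted p = 0.0457). Thus 5 members were lower and 1 higher at an unadjusted p under 0.05, where 8.03% and 7.52% of genes were, and 0 passed after adjustment, where 0.0372% did. In the fit to all 12 libraries with the trend removed, 0 members were past an unadjusted p of 0.05 (background 4.26%), with Fzr1 at -0.25 and Cdc20 at -0.03.

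**Figure D5:**
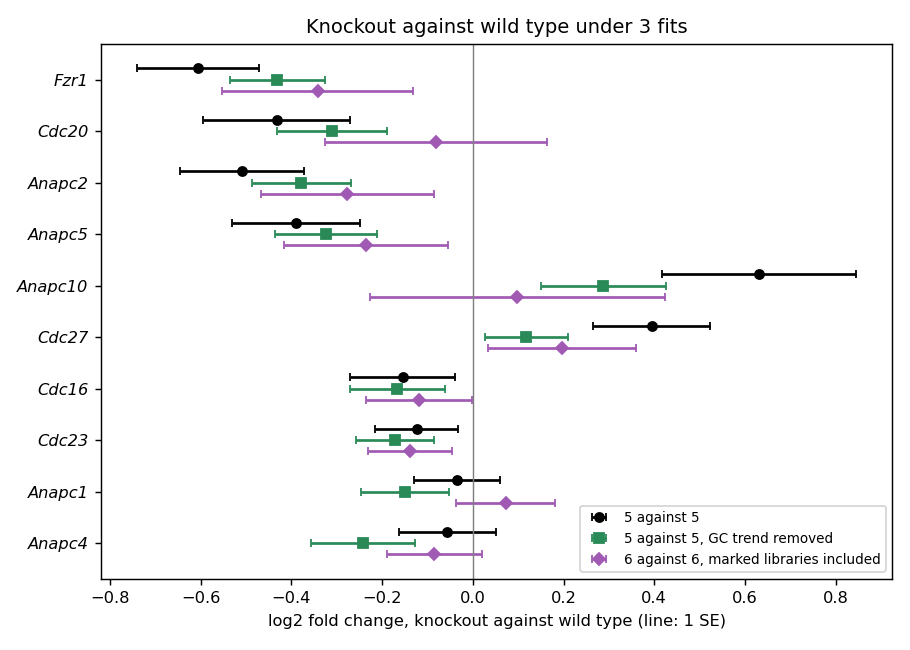
Log2 fold changes of the 10 members, knockout against wild type, with lines of 1 SE, in the comparison of 5 against 5 libraries (circles), the same with each library's GC trend removed (squares) and with all 12 libraries (diamonds). Fzr1 is at -0.61, -0.43 and -0.34 and Anapc10 at 0.63, 0.29 and 0.10.

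The genes whose levels were most like those of Cdc20 over the 10 libraries were Glmp, Psmc5 and H2afx (Pearson r of log2 CPM 0.99, 0.99 and 0.98; Spearman rho 0.99 for the first pair and 1 for H2afx). For Fzr1 they were Zfpm1, Llgl1 and Ap2a1 (r = 0.98 each; rho 0.96 for Zfpm1, 1 for Llgl1 and 0.99 for Ap2a1). These are descriptions over libraries that differed in depth and in GC contrast, the latter from -0.38 in KO3 to 0.47 in WT6. All 6 genes were above 50% GC, from 51.7% for Psmc5 to 64.6% for Zfpm1. Cdc20 and Fzr1 had r = 0.93 with each other. With Cdc27, Cdc20 had r = -0.93 and Fzr1 -0.91. Cdc23 ran with Cdc20 within wild type (r = 0.99, n = 5 libraries) and against it within knockout (-0.95, n = 5), and no test was made on those few libraries.

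The other 6 subunits each had a lower mean in knockout, by little. None passed after adjustment, and 0 were past 0.05 without adjustment, in edgeR's test or in DESeq2. Of all genes, 0.0223% passed in edgeR's test, and 11.8% were higher and 9.97% lower at 0.05 without adjustment. The median log2 fold change of the 6 was -0.11, beside 0.00 over all genes tested. Anapc11, the RING subunit that brings in the ubiquitin-conjugating enzyme, was at 247 ± 23.4 and 204 ± 52.5 CPM (SD, n = 5 each, wild type first here and below; log2 fold change -0.28, adjusted p = 0.272). Anapc7, a TPR subunit, was at 67.0 ± 6.24 and 57.3 ± 9.08 CPM (-0.22, adjusted p = 0.273), and the small subunit Cdc26, which steadies Cdc16, at 50.7 ± 5.54 and 45.6 ± 3.41 CPM (-0.15, adjusted p = 0.408). With the marked libraries 4 of the 6 were negative. Without KO5, Anapc11 and Anapc7 passed as lower, where 10.6% of all genes did.

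Of 5 ubiquitin-conjugating enzymes, 1 was higher without adjustment at 0.05 and 0 were lower (11.8% and 9.97% of all genes), and 0 passed after adjustment with edgeR or DESeq2. The one was Ube2d2a, which can start chains on substrates, at 118 ± 14.2 and 150 ± 39.0 CPM (log2 fold change 0.35, adjusted p = 0.200). With the GC trend removed its unadjusted p was 0.237. Its relative Ube2d3 was at 577 ± 30.7 and 671 ± 98.3 CPM (0.22, adjusted p = 0.252), and Ube2s, which extends the chains, at 74.1 ± 6.67 and 78.1 ± 5.04 CPM (0.08, adjusted p = 0.670).

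Inhibitors of the complex and spindle checkpoint genes, which hold Cdc20 in check until chromosomes are attached, had 9 of 10 members tested. Fbxo43 did not pass the filter on low counts. Without adjustment 3 were higher and 1 lower at 0.05 (11.8% and 9.97% of all genes), and 0 passed after adjustment in edgeR's test. DESeq2 called Ttk higher, as it did 1.75% of all genes. Ttk, the kinase that starts the checkpoint, was at 31.4 to 43.4 CPM in wild type and 43.7 to 72.8 CPM in knockout. These ranges did not overlap, as for 2.35% of genes tested (log2 fold change 0.48, SE 0.14, adjusted p = 0.131). The marked libraries stood in the opposite order, at 63.0 CPM in WT2 and 55.4 in KO4, so with WT2 the groups overlapped. With the GC trend removed Ttk was at 0.29 (unadjusted p = 0.0243). Mad2l1, which binds Cdc20 directly, was at 276 ± 19.4 and 340 ± 56.0 CPM (0.30, adjusted p = 0.158). Its log2 fold change was 0.04 with the GC trend removed. Mad1l1, the partner that loads Mad2l1, was low at 10.3 ± 1.83 and 6.89 ± 1.66 CPM (-0.58, adjusted p = 0.145). It overlaps antisense genes, of which Gm16121 shares exon sequence with it, and an unstranded library cannot set reads there apart.

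Transcripts of 25 proteins that the complex degrades in mitosis and G1 showed 4 higher and 1 lower without adjustment at 0.05 (11.8% and 9.97% of all genes), and 0 after adjustment with edgeR or DESeq2. Their median log2 fold change was -0.05. Ect2, a regulator of cytokinesis, was at 333 ± 57.7 and 424 ± 58.3 CPM (0.35, adjusted p = 0.150), Ccnb1, which encodes cyclin B1, at 108 ± 15.6 and 147 ± 40.6 CPM (0.44, adjusted p = 0.160), and the spindle protein Nusap1 at 160 ± 25.0 and 209 ± 52.9 CPM (0.39, adjusted p = 0.170). With the GC trend removed these were at 0.11, 0.27 and 0.18, and without adjustment 1 of the 25 was higher and 3 were lower at 0.05 (7.52% and 8.03% of all genes).

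Of 10 genes whose proteins have been described as substrates in neural cells, Skil among them, 2 had an unadjusted p under 0.05 as higher and 2 as lower (11.8% and 9.97% of all genes), and 0 passed in edgeR's test. One of the lower pair was Skil, the deleted gene, whose direction is a check of the labels here. DESeq2 called it alone, as lower, where it called 1.59% of all genes lower. Smurf1, itself a ubiquitin ligase of the SMAD pathway, had a mean of 18.3 CPM (15.5 to 21.5) in wild type and 14.2 CPM (12.2 to 17.2) in knockout, a log2 fold change of -0.36 (adjusted p = 0.170), and was at -0.22 (unadjusted p = 0.140) once the GC trend was removed. Fmr1, an RNA-binding protein, was at 433 ± 71.1 and 573 ± 140 CPM (0.40, adjusted p = 0.171), with a log2 fold change of 0.06 once the GC trend was removed.

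With all 12 libraries, of the genes on these lists Ttk alone was higher without adjustment at 0.05 (log2 fold change 0.34, unadjusted p = 0.0474; 1.91% of all genes) and Skil alone lower (-0.96, unadjusted p = 3.8e-04; 1.55% of all genes). Among the genes named above, Ccnb1 was then at 0.11, Nusap1 at 0.15, Mad2l1 at 0.06, Mad1l1 at -0.27, Fmr1 at 0.11 and Ube2d2a at 0.03.

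By position in GRCm38, 3 members share annotated exon sequence with a gene on the opposite strand: Cdc20 (chromosome 4, 118432901 to 118437352) with Elovl1, Fzr1 (chromosome 10, 81366222 to 81378516) with Mfsd12, and Cdc23 (chromosome 18, 34630951 to 34651735) with Kif20a. Among the list genes named above, so do Mad1l1 with Gm16121, Nusap1 with Oip5, Ube2d3 with 4930539J05Rik and Ube2s with Rpl28. Reads in those stretches cannot be assigned by strand. Anapc2 (chromosome 2, 25272478 to 25285915), Anapc5 (chromosome 5, 122787459 to 122821339) and Cdc27 (chromosome 11, 104502745 to 104550620) overlap no annotated gene. Anapc10 (chromosome 8, 79711820 to 79779059) overlaps an antisense gene and a pseudogene outside its exons.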

How the data were processed

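Per the labels' protocols, RNA from captured tissue was made into libraries with a NEBNext Ultra kit, a chemistry without strand information. Each library has a deposited list of raw counts, whole reads for every gene. The submitters' processing notes name mm10, HTSeq 0.6.1, STAR 2.5.3a, cutadapt 1.16 and, with no version, DESeq2, while the annotation and strand setting were not stated in them. The 5 HTSeq summary rows were left out; 64.4% to 67.6% of records were aligned to several places, and of uniquely aligned ones 10.8% to 14.7% lay in no gene and 6.81% to 8.13% were ambiguous.

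Identifiers were matched without their version to GENCODE M21 (53274 of 53379). Genes were filtered with filterByExpr (minimum count 10), scaled by TMM and compared with edgeR 4.0.16 (limma 3.58.1, R 4.3.3; robust quasi-likelihood test, Benjamini-Hochberg over all genes tested, threshold 0.05). CPM used factors from all 12 libraries. Exact permutation tests on single genes used log2(CPM + 1). DESeq2 1.42.0 was an alternative. The GC trend was a spline (5 degrees of freedom) of log2 CPM (prior count 2) on transcript GC content, entered as an offset. Named genes were the members, Skil, the 3 with the smallest p in each list, and the 3 most like each activator. The fitting was tested on simulated counts drawn with no GC contrast and no outlying library, so that test does not cover these features of the data. Members and lists were chosen with earlier results of these data known.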

Additional observations from a re-analysis of the deposited data

Results flagged for a closer look

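Cdc23 in KO5, at 134 CPM, lay apart from the other 4 knockout libraries, which were at 146 to 150 CPM: the gap to the nearest was 0.735 of the group's range, above Dixon's critical value of 0.71 for 5 libraries. It was the 1 group set apart in this way among 22 looked at (10 members and Skil in 2 genotypes), and chance gives about 1 in 20.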

How the results depend on the processing

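Of the 23 alternatives to the comparison of 5 against 5 libraries, 2 were added after seeing the data: all 12 libraries with the GC trend removed, and the shared numbers without a block. Genes called over all genes tested numbered 3; they were 1 with all 12 libraries or with KO4 included, 0 with KO2 counted as wild type (756 at an unadjusted p under 0.05), 449 with DESeq2, 965 with no filter and 5 with the GC trend removed, and 0 to 3102 when each library was left out. Members called were 2 with DESeq2, 6 with no filter and 0 to 6 leaving out each library. In DESeq2, Fzr1 was at -0.606 and Anapc2 at -0.508, and Skil at -0.699. With no filter, Fzr1 was at -0.604, Anapc2 -0.507, Cdc20 -0.431, Anapc5 -0.388, Cdc27 0.395, Anapc10 0.633 and Skil -0.70. Skil passed with the GC trend removed (-0.947; all 12 libraries -1.046). The cause of these differences was not tested.

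Signs turned for Anapc1 with all 12 libraries (0.072), these with the GC trend removed (0.03), KO4 included (0.035) and KO2 as wild type (0.002), and for Anapc4 with KO2 as wild type (0.013). Leaving out each library gave log2 fold changes of -0.726 to -0.522 for Fzr1, -0.611 to -0.348 for Cdc20, -0.593 to -0.411 for Anapc2, -0.528 to -0.328 for Anapc5, 0.48 to 0.803 for Anapc10, 0.337 to 0.50 for Cdc27 and -0.779 to -0.59 for Skil. List counts, 0 in the comparison, were 1 for inhibitors with DESeq2 and 1 with no filter, 3 for mitotic substrates with no filter, and for neural substrates 1 with DESeq2, 2 with no filter and 1 with the GC trend removed in 10 or 12 libraries. Leaving out each library gave 0 to 2 of the 6 other subunits and 0 to 2 of the 5 conjugating enzymes. It gave 0 to 4 of the 9 inhibitors tested, 0 to 9 of the 25 mitotic and 0 to 3 of the 10 neural substrates. Each maximum was without KO5, where 22.9% of all genes passed. Of all genes tested, 3.34% were called with DESeq2, and 3.49% of 27688 genes with no filter. With the GC trend removed the share was 0.0372% in 10 libraries and 0.03% in 12.

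Among the libraries not marked as outliers, numbers 3, 5 and 6 occur in both groups. The correlation of same-numbered deviations was 0.11, -0.05 and 0.09, so the numbers were not taken as pairs, and no library of these was most like its own number. With a replicate block on these 6 libraries 0 genes were called (606 at an unadjusted p under 0.05), also with the GC trend removed (567) and without the block (524). Under the block Anapc4 was at 0.11 and Cdc16 at 0.031 (0.001 with the GC trend removed as well); without it they were at 0.104 and 0.02. The lowest count of any member was 311 reads. Whether depth, the number of libraries or their spread limits the precision was not tested.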
